A study of Homo sapiens with 12 samples.

Results

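The comparison described here asked what disulfiram with copper (DSF) changed in leukemia cells that were also exposed to niclosamide (NSM), by setting 3 DSF+NSM libraries against 3 NSM libraries. These 6 libraries, chosen by their treatment labels alone, are part of a series of 12 libraries of RNA from SHI-1, a human acute myeloid leukemia cell line that carries the MLL-AF6 fusion. The groups were DMSO, 0.3 µM disulfiram with 1 µM Cu, 5 µM NSM, and the combined drugs, each for 16 h and each with 3 libraries from independent experiments. All groups share the same cell line, so a result here describes SHI-1 cells and no other leukemia. Whether the DMSO and NSM cells received Cu is not stated, so disulfiram and Cu cannot be told apart here and DSF below means both. The labels name RPMI as the culture medium, whereas the study's methods name IMDM for SHI-1 cells.

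Disulfiram is an alcohol-aversion drug whose metabolite binds copper, and the copper complex carries the metal into cells. Its known targets include NPL4, an adaptor of the p97 segregase that hands ubiquitinated proteins to the proteasome. Niclosamide is an antihelminthic that uncouples mitochondria. Misfolded proteins activate heat shock factor 1 (HSF1), which turns on the genes for cytosolic chaperones. Free zinc or copper stress activates MTF1 at metallothionein genes. Oxidants and electrophiles activate NRF2 at antioxidant genes, and phosphorylation of eIF2 raises ATF4 and its targets, the integrated stress response.

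The promoters of a few genes are shown because 3 of these pathways have known DNA elements, and the data below include large changes of their genes. The windows are 190 bases from RefSeq, build GRCh38.p14, written along each gene's strand with the motif matches in capitals. They were chosen after the matches were seen. Searched were the heat shock element core GAANNTTC, the metal response element core TGCGCNC or TGCACNC, the ATF4 and CEBP element TGATGNAA and the antioxidant response element core TGACNNNGC, on both strands and with overlapping matches counted. HSPA1A, an HSP70 gene, lies on the plus strand at chr6:31815353-31815542, HSPA6, a strictly inducible HSP70 gene, on the plus strand at chr1:161524350-161524539, MT1X, a metallothionein gene, on the plus strand at chr16:56682280-56682469, MT2A, the main metallothionein gene, on the plus strand at chr16:56608394-56608583, and ASNS, the asparagine synthetase gene, on the minus strand at chr7:97872409-97872598.
HSPA1A: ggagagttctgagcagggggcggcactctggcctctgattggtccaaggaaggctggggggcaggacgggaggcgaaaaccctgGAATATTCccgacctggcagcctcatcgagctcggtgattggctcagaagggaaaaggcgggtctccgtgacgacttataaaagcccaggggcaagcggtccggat
HSPA6: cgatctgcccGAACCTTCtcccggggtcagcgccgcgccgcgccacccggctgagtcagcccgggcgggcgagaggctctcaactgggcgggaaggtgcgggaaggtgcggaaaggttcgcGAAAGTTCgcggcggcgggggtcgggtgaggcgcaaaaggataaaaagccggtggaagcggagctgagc
MT1X: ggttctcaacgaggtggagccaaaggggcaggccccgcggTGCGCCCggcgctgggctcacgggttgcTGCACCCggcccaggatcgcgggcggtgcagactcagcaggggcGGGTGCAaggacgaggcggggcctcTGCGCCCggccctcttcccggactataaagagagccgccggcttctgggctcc
MT2A: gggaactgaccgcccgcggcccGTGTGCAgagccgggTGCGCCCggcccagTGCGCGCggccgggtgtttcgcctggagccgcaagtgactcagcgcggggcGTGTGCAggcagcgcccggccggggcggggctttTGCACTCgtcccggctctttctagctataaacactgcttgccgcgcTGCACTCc
ASNS: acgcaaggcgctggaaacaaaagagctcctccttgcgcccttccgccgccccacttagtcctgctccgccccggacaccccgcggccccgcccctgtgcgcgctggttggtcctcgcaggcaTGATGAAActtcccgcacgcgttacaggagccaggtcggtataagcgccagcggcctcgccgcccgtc
The capitals mark the heat shock element core in the first pair, the metal response element core in the metallothionein genes and the ATF4 and CEBP element in ASNS. HSPA1A held 1 match, HSPA6 2, MT1X 4, MT2A 6 in the printed window and 8 in the whole promoter of 300 bases, and ASNS 1. A match is a run of letters and was not tested for binding.

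The summed normalized count was 17.5, 16.5 and 17.3 M (M, 1e6) in the NSM libraries and 25.6, 25.2 and 22.7 M in the DSF+NSM libraries. The reads behind these sums were estimated at 10.2 to 17.8 M for the 6 libraries, with the fewest in DSF+NSM replicate 3. NSM replicate 3 stood apart from the other NSM libraries before any comparison was made: its Spearman correlation across genes was 0.939 with replicate 1 and 0.950 with replicate 2, which correlated at 0.994 with each other. Mitochondrial rRNA took 4.88% of its sum, against 1.48% and 1.90% in replicates 1 and 2. DSF+NSM replicate 3 correlated with replicates 1 and 2 at 0.980 and was the lowest of its group for many of the most changed genes. Results below are therefore also given without NSM replicate 3 where this changes them. Of 9 monocytic identity markers 8 were analysed, and their summed level was 34236 to 39118 in the NSM and 34143 to 35402 in the DSF+NSM libraries. MPO was the largest part, at 14454 to 18630 in NSM, while CSF1R was at 11.9 to 33.2. The sum fits a myeloid line but does not show a monocytic one. The summed T and B cell markers reached 165 to 204 in NSM and 155 to 354 in DSF+NSM, with the B cell marker MS4A1 listed at 0 throughout. Epithelial and stromal markers summed to 578 to 593 and 543 to 666, most of it PECAM1. Of 5 erythroid and megakaryocytic markers 1 was analysed.

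Of 14866 genes in each library, 13502 had 10 or more normalized counts in 3 or more libraries and were tested with limma on log2(normalized count + 1), a scale that understates the change of low genes. A gene is said to rise or fall where its Benjamini-Hochberg adjusted p over all genes tested was below 0.05. On adding DSF to NSM, 5212 genes changed, 38.6% of those tested, 2736 of them higher (20.3%) and 2476 lower (18.3%). Among these, 1591 rose and 862 fell by more than 1 on the log2 scale. Among genes with at least 10 in every library these counts were 835 and 796. With each library scaled to an equal sum they were 947 and 2960. Which direction held more large changes thus depended on the filter and the scale. Without NSM replicate 3, 6621 genes changed (49.0%), 3329 higher (24.7%) and 3292 lower (24.4%). The calls shared by these counts numbered 4831, or 92.7% of the first and 73.0% of the second, and none of the shared calls turned its direction. A fit of the 6 libraries alone called 2473 genes, 1465 higher and 1008 lower. In 5599 genes (41.5%) the 3 values of the groups did not overlap.

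**Figure D1:**
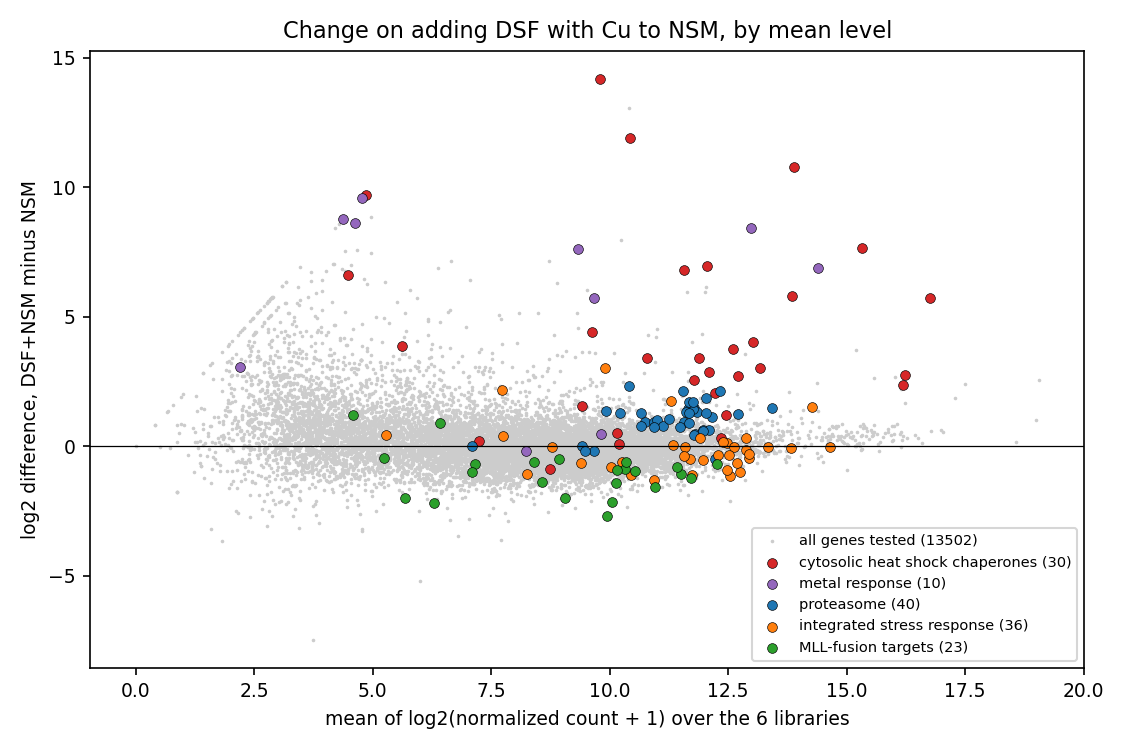
Each point is a gene tested, with its mean log2(normalized count + 1) over the 6 libraries on the x axis and its log2 difference, DSF+NSM minus NSM, on the y axis; 5 gene lists are coloured. Heat shock and metal response genes lie far above 0, proteasome genes mostly between 0 and 2.32, and most MLL-fusion targets below 0.

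A few sets of very abundant transcripts made up much of the difference in the sums. The 30 heat shock chaperone genes took 0.674% ± 0.140 (SD, n = 3) of the summed normalized count in NSM and 12.3% ± 1.87 in DSF+NSM, and made up 39.5% of the 7.36 M by which the mean sums differed. In DMSO and DSF cells the same genes took 1.18% and 1.50%. Metal response genes went from 0.0218% to 1.64% and NRF2 targets from 1.11% to 3.47%. The 6 rRNA genes listed took 4.70% to 5.53% in NSM and 9.63% to 11.7% in DSF+NSM, and made up another 24.2% of the difference. They include mitochondrial rRNA, which took 1.48%, 1.90% and 4.88% in NSM and 3.43%, 3.28% and 4.14% in DSF+NSM, with overlapping libraries. The libraries were poly(A) selected, so the rRNA share is not the level of rRNA in the cells. In the heat shock, metal response, NRF2 and whole rRNA sets the NSM and DSF+NSM libraries did not overlap. The exact two-sided permutation p of each was 0.1, the smallest that 3 against 3 libraries allow. The 78 cytosolic ribosomal protein genes took 15.9% ± 2.90 and 14.8% ± 1.17, with overlapping libraries and an exact permutation p of 0.6.

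**Figure D2:**
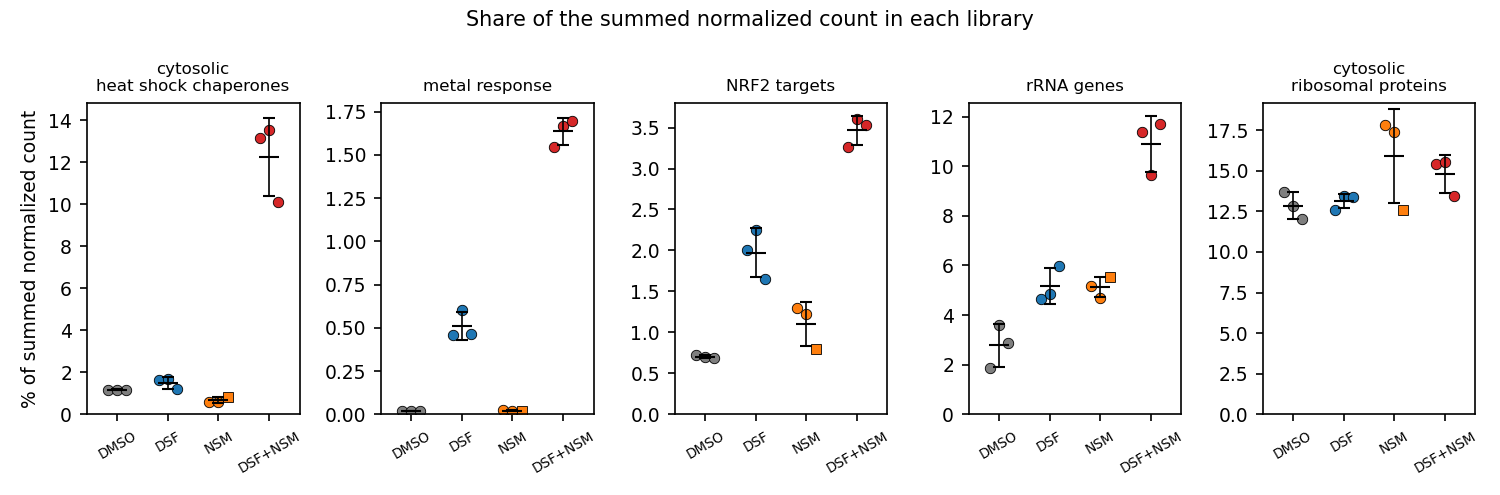
Percent of the summed normalized count taken by 5 sets of genes (y axes from 0) in each library of the 4 groups, with mean and SD; the square is NSM replicate 3. The heat shock share is 10.1% to 13.5% in DSF+NSM and below 2% in every other library.

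These shares bear on the scale of every difference, because the authors' normalization was kept. On that scale the median log2 difference of all genes tested was 0.03. When each library was scaled to an equal sum instead, the median moved to −0.48, and 1315 genes were higher and 6069 lower, so that the share of changed genes that were higher went from 52.5% to 17.8%. Without the rRNA genes in the sum the median was −0.39. Absolute RNA amounts per cell were not measured, so neither scale is tied to them. In RNA of whole cultures, fewer cells of a kind and less RNA per cell cannot be told apart. The large changes held on both: the median of the heat shock list was 3.41 as deposited and 2.89 at equal sums, and that of the metal response list 7.25 and 7.11. Counts at equal sums are given with the lists whose direction or median sign depended on the scale.

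Cytosolic chaperones showed the most extreme rises. Of 30 heat shock genes tested 25 rose and 1 fell, with a median log2 difference of 3.41, and without NSM replicate 3 the counts were 27 and 2 with a median of 3.50. Of 9 HSP70 and HSP110 genes 8 rose, with a median of 5.79. HSPA6, which is nearly silent in unstressed cells, was at 6.87, 4.84 and 5.11 in the NSM libraries and at 149856, 153117 and 78927 in the DSF+NSM libraries. The groups were separated widely, with DSF+NSM replicate 3 the lowest of its group. The log2 difference was 14.18 ± 0.37 (SE, n = 3 per group; limma adjusted p = 9.91e-11), the largest of any gene tested.

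HSPA1B, the most abundant inducible HSP70 transcript here, was at 428, 362 and 303 in NSM and at 753236, 794172 and 442073 in DSF+NSM, a log2 difference of 10.79 ± 0.30. HSPA1A was at 37.3, 20.3 and 12.8 and then at 108681, 109561 and 52688, a difference of 11.90 ± 0.45. The coding sequences of HSPA1A and HSPA1B are near-identical, so the division of reads between them is uncertain, but no NSM library of either came near a DSF+NSM library. The constitutive HSC70 gene HSPA8 went from 25187, 22822 and 44992 to 208974, 209304 and 180594, a difference of 2.75. HSPH1, the HSP110 nucleotide exchange factor, rose by 5.79. HSPA4 was the single HSP70 or HSP110 gene that did not pass, at 0.30 with an adjusted p of 0.26 in limma and 0.60 without NSM replicate 3 (limma adjusted p = 0.00013).

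HSP90 and its cochaperones rose without exception, 9 of 9 with a median of 3.02. HSP90AA1, the inducible HSP90 gene, went from 13076, 13086 and 20462 to 908983, 906127 and 629743, a log2 difference of 5.73 ± 0.19 (limma adjusted p = 9.72e-10). At these levels it was among the highest mRNAs of the DSF+NSM libraries. HSP90AB1, its constitutive partner, rose by 2.37, the ATPase activator AHSA1 by 3.42, the immunophilin FKBP4 by 3.75 and the kinase-loading cochaperone CDC37 by 1.21. Of the HSP40 cochaperones 3 of 5 rose, DNAJB1 by 7.64, DNAJA1 by 4.02 and DNAJB6 by 2.86. BAG3, which links HSP70 to selective autophagy, rose by 6.81, and the collagen chaperone gene SERPINH1 by 6.95. CRYAB, a small heat shock protein, was listed at 0 in every NSM library and at 1218, 984 and 486 with DSF. Of the regulators, HSF1 differed by 0.07 (limma adjusted p = 0.84), and by −0.32 without NSM replicate 3 (limma adjusted p = 0.011). HSF2, a related factor, fell by 0.87 but did not pass in the 6 libraries alone (limma adjusted p = 0.0502).

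The heat shock element core was found in the promoters of 10 of the 27 heat shock genes with a RefSeq promoter, 37.0%, against 6.87% of 27305 promoters in all. These 10, which include HSPA1A, HSPA6 and HSPA8, all rose, with a median log2 difference of 3.94. Of the 17 without a match in the window 13 rose, with a median of 2.70, so large rises occurred with and without these letters. HSP90AA1, BAG3 and DNAJB1 are among the 17.

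**Figure D3:**
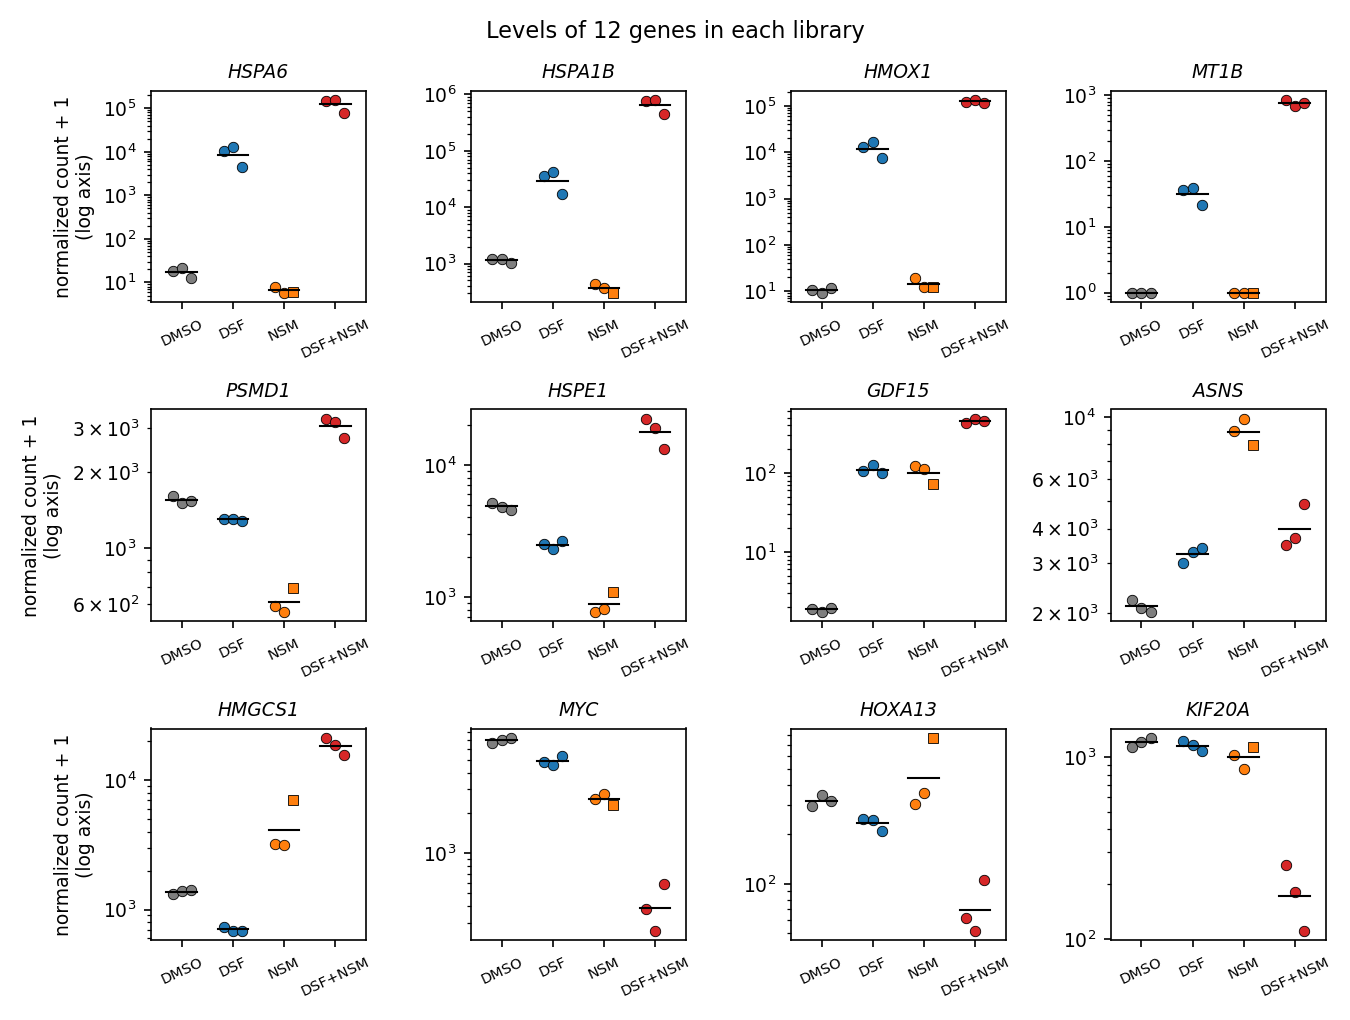
Normalized count + 1 (log axes) of 12 genes in the 12 libraries; lines are group means on the log scale and squares are NSM replicate 3. HSPA6, HSPA1B and HMOX1 are 3 or more decades higher with both drugs than with NSM, PSMD1 and HSPE1 are lowest with NSM alone, ASNS is highest with NSM alone, and MYC, HOXA13 and KIF20A are lowest with both drugs.

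Other chaperone systems rose less. Of 17 chaperonin and mitochondrial chaperone genes 9 rose and 2 fell (median 0.59, and 0.37 without NSM replicate 3). HSPE1, the small lid subunit of the mitochondrial chaperonin, was at 771, 808 and 1084 in NSM and at 22284, 18998 and 13293 in DSF+NSM, with no overlap. Its log2 difference was 4.34 ± 0.18, whereas its partner HSPD1 rose by 1.35. Among the subunits of TRiC, which folds actin and tubulin, CCT3 rose by 2.03 and TCP1 by 1.44, and 5 of 8 rose in all. The mitochondrial protease subunit CLPX fell by 0.70. At equal sums the list had 6 genes higher and 5 lower with a median of 0.08.

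Metallothioneins, the small cysteine-rich proteins that bind zinc and copper, were the other extreme. Of 13 metallothionein genes written in the list 7 were analysed. All 7 rose, with a median log2 difference of 8.41, or 7.62 over the 5 that were not listed at 0 throughout NSM. MT2A went from 2362, 1953 and 1694 to 238399, 251802 and 208773, a difference of 6.87 ± 0.15 (limma adjusted p = 1.5e-11). MT1X went from 426, 352 and 552 to 139820, 150076 and 155654, a difference of 8.41 ± 0.17. The DSF+NSM libraries lay close together for both genes. MT1B and MT1H were listed at 0 in every NSM library and reached 690 to 838 and 397 to 495. MT1H was also at 0 in DMSO and at 4.63, 13.9 and 7.63 in DSF. It passed the filter only through its DSF+NSM libraries, so its rise follows in part from the filter. MT1G was at 0.982, 0 and 0 in NSM and at 534, 435 and 511 in DSF+NSM. MT1F rose by 7.62 and the least expressed, MT1E, by 3.06. Metallothionein genes are close copies of each other, so the division of reads among them is uncertain.

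The other MTF1 target on the list, the zinc exporter SLC30A1, went from 123, 79.4 and 144 to 6092, 5672 and 5938, a difference of 5.70 ± 0.22. MTF1 itself rose by 0.47 as deposited and differed by −0.05 at equal sums. The zinc importer SLC39A10 differed by −0.19 (limma adjusted p = 0.61). The metal response element core was present in 5 of 7 promoters, 71.4%, against 29.3% of all promoters, 38.8% of the promoters of genes tested and 52.6% of those of the NRF2 list, and those 5 genes, MT1B, MT1H, MT1X, MT2A and SLC30A1, all rose. SLC39A10 and MTF1 were the pair without it.

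Genes for copper transport and for protein lipoylation, the process that copper is known to disturb, gave few calls. Of 20 tested 2 rose and 1 fell, against 20.3% and 18.3% of all genes, with a median of 0.05. The counts were 4 and 3 without NSM replicate 3, and at equal sums 1 was higher and 9 lower with a median of −0.46. The copper importer SLC31A1 differed by 0.28 (limma adjusted p = 0.12) and the exporter ATP7A by 0.06. The copper-zinc superoxide dismutase SOD1 rose by 0.90. The lipoyl transferase gene LIPT1 was at 123, 147 and 232 in NSM and 61.2, 30.8 and 88.5 in DSF+NSM, and fell by 1.53 ± 0.36. FDX1, a mitochondrial ferredoxin needed for lipoylation, differed by 0.23 (limma adjusted p = 0.17).

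NRF2 targets rose in 17 of 25 and fell in none, with a median of 0.93 (0.80 without NSM replicate 3, where 18 rose and 1 fell). HMOX1, heme oxygenase 1, was at 18.7, 11.6 and 11.5 in NSM and at 124719, 133674 and 117085 in DSF+NSM. All DSF+NSM libraries lay within a narrow range, far above the NSM libraries, and the log2 difference was 13.06 ± 0.26 (limma adjusted p = 8.28e-12). OSGIN1, an oxidative stress growth inhibitor, rose by 3.80 and SRXN1, sulfiredoxin, by 2.83. The ferritin genes FTL and FTH1 rose by 2.40 and 2.21, the autophagy receptor gene SQSTM1 by 2.44, and GCLM, the modifier subunit of glutathione synthesis, by 1.63. Other named targets were less moved: NQO1 rose by 1.61, and SLC7A11, the cystine importer, differed by 0.03 (limma adjusted p = 0.89). NFE2L2, which encodes NRF2, differed by −0.10 (limma adjusted p = 0.78). The antioxidant response element core occurred in 4 of 19 promoters of the list (21.1%), in 13.6% of all promoters and in 15.4% of those of genes tested. It was more frequent in the heat shock (29.6%), metal response (57.1%), proteasome (24.2%) and integrated stress response (25.8%) lists, so it did not set the NRF2 list apart.

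Proteasome genes rose together by a moderate amount. Of 40 tested 34 rose and 1 fell, and the median was 1.10, or 1.05 without NSM replicate 3. In the 20S core 13 of 14 rose (median 1.07), and in the 19S regulatory particle 17 of 17 (median 1.33). PSMD1, a scaffold subunit of the 19S particle, was at 588, 558 and 690 in NSM and at 3251, 3159 and 2743 in DSF+NSM, and rose by 2.32 ± 0.12 (limma adjusted p = 4.2e-08). The groups did not overlap. PSMC4, a base ATPase, rose by 2.12, and VCP, which encodes p97, by 2.15. NPLOC4, which encodes NPL4, rose by 1.28, and its partner UFD1L by 0.75. The member that fell was NFE2L1, the transcription factor known to drive proteasome genes, at 6075, 5446 and 5609 and then 3282, 3904 and 5118, a difference of −0.50 ± 0.15. The adjusted p was 0.11 in the limma fit of the 6 libraries alone and 0.094 without DSF+NSM replicate 1. No heat shock element core was found in any of 33 proteasome promoters.

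The integrated stress response went in a mixed direction. Of 36 genes tested 4 rose and 14 fell, with a median of −0.22 (4 and 19, median −0.35, without NSM replicate 3, and 4 and 7 in the fit of the 6 libraries alone). The 4 that rose were all regulators or secreted stress markers. ATF3, a stress-induced repressor, was at 380, 422 and 239 in NSM and at 2839, 2661 and 2627 in DSF+NSM, and rose by 3.00 ± 0.23. GDF15, a stress cytokine, was at 120, 112 and 71.6 and then at 424, 477 and 453, and rose by 2.18 ± 0.23. SESN2, which restrains mTORC1, rose by 1.76, and PPP1R15A, the phosphatase subunit that reverses eIF2 phosphorylation, by 1.53. ATF4 differed by −0.03 (limma adjusted p = 0.86) and DDIT3, which encodes CHOP, by 0.14 (limma adjusted p = 0.60).

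The biosynthetic arm fell instead: 7 of 12 amino acid synthesis and transport genes and 7 of 12 aminoacyl-tRNA synthetases fell and none rose. Without NSM replicate 3 the counts were 9 and 8. In the fit of the 6 libraries alone 6 synthesis and transport genes fell but only 1 synthetase. ASNS was at 8940, 9845 and 7969 in NSM and at 3488, 3698 and 4876 in DSF+NSM, and fell by 1.16 on the log2 scale (SE 0.14). PHGDH, the first enzyme of serine synthesis, was at 4090, 3650 and 1946 and then at 1131, 1161 and 1419, and fell by 1.32 (SE 0.23). The groups did not overlap for either gene, although PHGDH was lowest by far in NSM replicate 3 within its group. SLC38A2, a glutamine transporter, fell by 1.11, but its libraries overlapped and its adjusted p was 0.079 in the limma fit of the 6 libraries alone. AARS, the alanyl-tRNA synthetase, fell by 0.98. The ATF4 and CEBP element was found in 11 of 31 promoters of the list, 35.5%, against 3.67% of all promoters. Of those 11 genes 1 rose and 5 fell.

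Endoplasmic reticulum genes gave 6 of 24 higher and 2 lower with a median of 0.05. The counts were 10 and 4 without NSM replicate 3, and 3 and 14 at equal sums with a median of −0.46. CRELD2, a secreted folding factor, rose by 1.73, and HYOU1, an ER HSP110, fell by 0.74. HSPA5, which encodes BiP, rose by 0.57 (limma adjusted p = 0.07 in the 6 libraries alone).

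Targets of MLL fusions, the genes that such fusions keep active in leukemia, fell. Of 23 tested 17 fell and 1 rose, with a median of −0.94 and, without NSM replicate 3, 19 and 1 with a median of −0.89. MYC was at 2545, 2775 and 2294 in NSM and at 376, 261 and 588 in DSF+NSM, and fell by 2.71 (SE 0.22; limma adjusted p = 3e-06). HOXA9, the homeobox gene most tied to this leukemia, was at 1673, 1682 and 4039 and then at 469, 418 and 648, and fell by 2.16, or by 1.74 without NSM replicate 3. HOXA10 was at 1130, 981 and 1068 and then at 264, 215 and 335, and fell by 1.98 (SE 0.16). No NSM library of these genes overlapped a DSF+NSM library.

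The HOX cofactor MEIS1 fell by 1.41 and PBX3 by 1.22, MYB by 1.07, the transcriptional adaptor LMO2 by 1.57 and the repressor GFI1 by 0.94. HOXA13, which is not on the list, was at 305, 356 and 770 and then at 61.3, 51.0 and 104, and fell by 2.65. The HOXA9 level of the DMSO libraries was 612 to 659 and that of MYC 6648 to 7246, so HOXA9 stood higher and MYC lower in NSM than in DMSO before DSF was added. KMT2A, the MLL gene whose transcript the count cannot separate from the fusion, was at 2588, 2075 and 2817 and then at 1747, 1727 and 2059, and fell by 0.43 (limma adjusted p = 0.15 in the 6 libraries alone).

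Myeloid lineage genes gave 10 higher and 4 lower of 28 (median 0.36), 10 and 8 without NSM replicate 3 (median 0.16), and 7 and 7 at equal sums (median −0.15). The largest movers were not maturation genes: the immediate early factor EGR1 rose by 3.37 and the differentiation inhibitor ID2 by 2.91, while CEBPD fell by 1.27. Among maturation genes S100A8 rose by 1.35, CSF1R by 1.05 and CD14 by 0.92, and FCGR1A, an Fc receptor, fell by 0.71. Without NSM replicate 3 the values were 0.63 for CSF1R and 0.59 for CD14, and neither passed in the 6 libraries alone (limma adjusted p = 0.12 and 0.084). The granule enzyme MPO differed by 0.33 (limma adjusted p = 0.061) and lysozyme, LYZ, by 0.03 (limma adjusted p = 0.89).

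Sterol genes rose. Of 26 cholesterol synthesis genes 18 rose and none fell, with a median of 0.74 (0.54 without NSM replicate 3, and 0.22 at equal sums, where 5 were higher and 2 lower). HMGCS1, an early enzyme of the pathway, was at 3196, 3128 and 7037 in NSM and at 21066, 18620 and 15615 in DSF+NSM, and rose by 2.15 ± 0.25, or by 2.53 without NSM replicate 3. The groups did not overlap. Glycolysis gave 15 higher and 2 lower of 22 (median 0.66, and 0.40 without NSM replicate 3), and 3 and 5 at equal sums with a median of 0.15. ENO2, an enolase, rose by 1.15, and TXNIP, which restrains glucose uptake, fell by 0.66.

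DNA replication and mitosis genes moved apart. Of 21 replication genes 16 rose and none fell (median 0.89), and of 17 mitosis genes 13 fell and none rose (median −0.91). MCM2, a subunit of the replicative helicase, was at 814, 912 and 476 in NSM and at 2589, 2350 and 1723 in DSF+NSM, and rose by 1.63 ± 0.22. Its DMSO level was 4626, 5045 and 5237, so after this rise it was still below DMSO. RRM2, a ribonucleotide reductase subunit, rose by 1.36 and CCNE1, cyclin E, by 1.59. KIF20A, a cytokinesis kinesin, was at 1026, 861 and 1131 and then at 255, 181 and 110, and fell by 2.53 (SE 0.24). CCNB1, cyclin B, went from 2507, 2580 and 2438 to 879, 761 and 741 and fell by 1.66 (SE 0.10), and PLK1 fell by 1.36. The centromeric histone gene CENPA fell by 2.57 and the mitotic gene DEPDC1 fell by 2.88. The groups did not overlap for any of the genes with values given here. At equal sums 9 replication genes were higher and 2 lower (median 0.37), and 16 mitosis genes were lower and none higher (median −1.42).

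**Figure D4:**
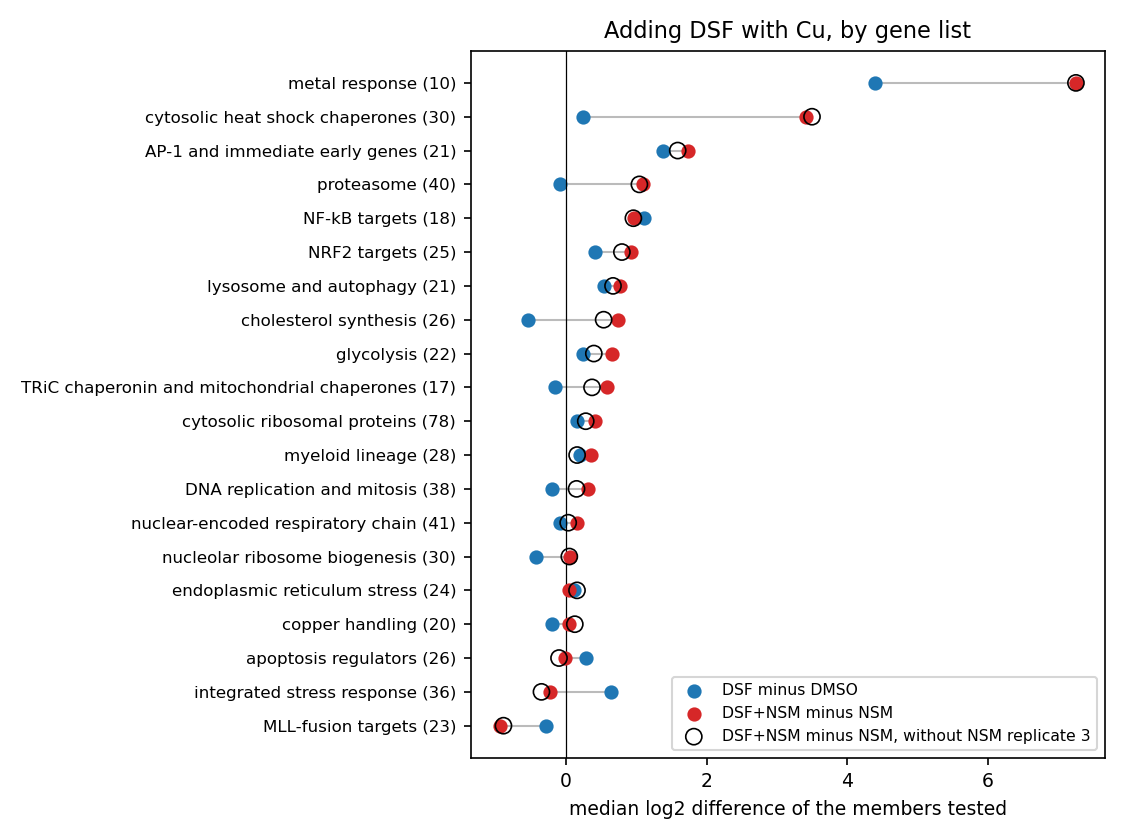
Median log2 difference (x axis) of the members tested in 20 gene lists, for DSF+NSM minus NSM with all libraries (red), without NSM replicate 3 (open circles) and for DSF minus DMSO (blue). The metal response median is 7.25 with NSM and 4.39 without it, whereas the cholesterol synthesis median is 0.74 and −0.54 and that of the integrated stress response −0.22 and 0.64.

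Among genes of stress signalling, growth arrest and death the members went both ways. GADD45B, a stress sensor of MAP kinase signalling, was at 603, 588 and 400 in NSM and at 39120, 44484 and 19460 in DSF+NSM, and rose by 5.95 ± 0.28. Among 26 apoptosis regulators 7 rose and 5 fell, or 26.9% and 19.2%, near the 20.3% and 18.3% of all genes tested. The counts were 8 and 10 without NSM replicate 3 and 4 and 13 at equal sums. PMAIP1, which encodes the pro-apoptotic protein NOXA, rose by 2.11, BAX by 1.26 and the pro-survival gene MCL1 by 0.84. CDKN1A, the p21 gene, rose by 2.18, while CDKN1B, the p27 gene, fell by 2.10 (1.70 without NSM replicate 3). Of 21 AP-1 and immediate early genes 17 rose and 1 fell, with a median of 1.73: IER5 rose by 5.95, JUN by 4.54 and FOS by 3.63, and the ERK phosphatase DUSP6 fell by 0.68. DUSP6 fell by 0.35 without NSM replicate 3 and did not pass in the 6 libraries alone (limma adjusted p = 0.14). Of 18 NF-kB genes 12 rose and 1 fell (median 0.97). The chemokine gene CXCL2 was low, at 3.93, 0 and 2.56 and then at 52.5, 52.5 and 62.2, and IL8, at 742, 679 and 1203 and then at 12122, 11710 and 18840, rose by 4.03.

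Lysosome and autophagy genes gave 12 higher and 2 lower of 21 (median 0.77), 13 and 4 without NSM replicate 3, and 9 and 8 at equal sums (median 0.25). The lysosomal calcium channel gene MCOLN1 rose by 2.57 and GLA, a lysosomal galactosidase, by 2.23, while the autophagy gene WIPI1 fell by 0.82.

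Genes of the translation and respiratory machinery gave no firm direction. Of 78 cytosolic ribosomal protein genes 39 rose and none fell as deposited (median 0.42, and 0.28 without NSM replicate 3), but at equal sums none rose and 15 fell with a median of −0.10. The fit of the 6 libraries alone called 1 of them. The 39 became 3, 4 and 60 without DSF+NSM replicates 1, 2 and 3. RPS9 was at 21010, 19376 and 7202 in NSM and at 31061, 30373 and 21708 in DSF+NSM, and its difference was 0.93 with all libraries and 0.44 without NSM replicate 3, which is by far the lowest of its group. Of 30 nucleolar genes 5 rose and 6 fell, with NOP2, an rRNA methyltransferase gene, higher by 1.03 and POLR1C, a polymerase subunit gene, lower by 0.81 (8 and 9 without NSM replicate 3, and 1 and 15 at equal sums). Of 41 nuclear respiratory chain genes 5 rose and 1 fell, with 6 and 5 without NSM replicate 3 and 0 and 20 at equal sums. UQCRQ was at 0.95 (0.63 without NSM replicate 3) and NDUFV2 at −0.56. Mitochondrially encoded genes were not analysed here.

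Several of the largest changes fell outside the lists. THBS1, which encodes the matrix protein thrombospondin 1, was at 1.96, 0 and 0 in NSM and at 847, 843 and 420 in DSF+NSM. MIR7-3HG, a microRNA host gene, was listed at 0 in all NSM libraries and reached 532, 506 and 209. COL2A1, a collagen gene, went from 1.97, 1.94 and 0 to 372, 263 and 189, and COL1A1, which was among the stromal markers, from 9.73, 7.47 and 21.6 to 134, 118 and 63.9. In all, 33 genes were listed at 0 in every NSM library and reached at least 10 in every DSF+NSM library, and 18 of these were at 0 in every DMSO library as well. The reverse pattern was seen in 1 gene, COMMD3-BMI1, at 35.3, 130 and 1174 in NSM and 0 in all DSF+NSM libraries. It joins neighbouring genes by read-through, as does TGIF2-C20orf24, so that the authors' counting could divide its reads with them.

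Among the other large falls, SGK3, a kinase gene that overlaps a read-through gene, went from 329, 361 and 482 to 56.9, 0 and 19.1, and SCHIP1, which overlaps its neighbour, from 72.5, 71.6 and 105 to 0, 26.2 and 26.9. The adjusted p of SCHIP1 was 0.0175 with all libraries and 0.0889 without NSM replicate 3 in limma. ZXDB, a zinc finger gene, fell by 2.49, and OR7D2, an olfactory receptor gene, by 2.50 (limma adjusted p = 0.053 in the 6 libraries alone).

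To see which of these changes were particular to cells with NSM, the same addition was followed without NSM, in DSF and DMSO libraries. Their values do not enter the log2 differences above. The fit shares its estimate of the spread over all 12 libraries, however, so the calls of these comparisons are not independent. DSF against DMSO changed 2405 genes (17.8%), 1601 higher (11.9%) and 804 lower (5.95%). At equal sums 1212 were higher and 1248 lower, and without DSF replicate 2 the counts were 763 and 148. A fit of the DSF and DMSO libraries alone called 7289 genes (54.0%), 3988 higher and 3301 lower. Without NSM replicate 3, which is in neither group, 5551 were called. Overlaps below use the 2405 calls of the fit of all 12 libraries. A gene not called there may still have changed with DSF. Of the 1601 higher genes 566 also rose on adding DSF to NSM, 35.4% of these and 20.7% of the 2736, and 294 (18.4%) fell. Of the 804 lower genes 167 also fell, 20.8% of these and 6.74% of the 2476, and 136 (16.9%) rose. Of all genes tested 20.3% rose and 18.3% fell on adding DSF to NSM, so the 18.4%, 20.8% and 16.9% were near those shares. The difference between the changes with and without NSM, tested as an interaction term, was called in 3527 genes (26.1%), 1632 more positive with NSM (12.1%) and 1895 more negative (14.0%). At equal sums 913 were more positive and 3866 more negative. Among the genes with a called interaction, 1034 rose and 1012 fell with NSM and were not called without it in the fit of all 12 libraries. Across the 13502 genes the changes with and without NSM correlated at Pearson's r = 0.38 and Spearman's rho = 0.20, a description over genes that share libraries within each comparison.

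Heat shock genes differed most between the settings. Their median was 3.41 with NSM and 0.24 without it, 26 of 30 had a more positive change with NSM and 1 a more negative. HSP90 and its cochaperones gave 9 of 9 higher with NSM and none called without it (median −0.05). In the fit of the DSF and DMSO libraries alone 2 of these 9 were higher and 2 lower. HSP90AA1 was at 47731, 49362 and 45766 in DMSO and at 50674, 51963 and 39553 in DSF. HSPA6 did respond to DSF alone, from 17.7, 20.4 and 11.8 in DMSO to 10639, 12540 and 4433, a log2 difference of 8.93 and an interaction of 5.25. Proteasome genes had a median of −0.08 without NSM, with 4 higher and 10 lower, and 32 of 40 had a more positive change with NSM. PSMD1 was at 1608, 1508 and 1539 in DMSO, so the NSM level of 558 to 690 from which it rose was below that of DMSO.

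Metal response genes, in contrast, rose in both settings, with 8 of 10 higher without NSM (median 4.39) and 9 of 10 with it. Interaction was positive in 6 and negative in none, or in 5 and 1 at equal sums. For MT1F the changes of 7.62 and 7.14 did not differ beyond their error (interaction 0.48, limma adjusted p = 0.25), whereas MT2A changed by 6.87 with and 4.84 without NSM (interaction 2.03, limma adjusted p = 7.06e-05). HMOX1 rose by 10.12 without NSM, with an interaction of 2.94.

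Integrated stress response genes gave mostly rises without NSM, where 24 of 36 rose and 1 fell (median 0.64), against 4 and 14 with it. The interaction was negative in 22 and positive in none, or in 28 and none at equal sums. DDIT3 was at 244, 193 and 139 in DMSO and 1509, 2074 and 1439 in DSF, whereas in NSM it was already at 4723 to 6192 and in DSF+NSM at 5778 to 6140. GDF15 was at 0.756 to 0.980 in DMSO and 98.1 to 125 in DSF, close to its NSM level of 71.6 to 120. PHGDH rose by 1.52 without NSM and fell by 1.32 with it, and ASNS rose by 0.62 and fell by 1.16. Cholesterol synthesis differed in the opposite sense: 12 of 26 genes fell and none rose without NSM (median −0.54), and 21 had a positive interaction. In the DSF and DMSO libraries alone 20 fell and 3 rose. HMGCS1 fell by 0.97 without NSM. Of the MLL-fusion targets none was called without NSM in the fit of all 12 libraries (median −0.28), and 12 of 23 had a more negative change with it. In a fit of the DSF and DMSO libraries alone 12 of the 23 fell and none rose, and 6 fell without NSM replicate 3. The absence of calls is thus no absence of a fall with DSF alone. MYC, at 6648, 7067 and 7246 in DMSO and 4824, 4562 and 5327 in DSF, differed by −0.51 without NSM (limma adjusted p = 0.13), with an interaction of −2.19 (limma adjusted p = 0.00044).

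Transcript length moved with the result and is given beside it, since NSM replicate 3 differed by length from its group. For 12594 genes (93.3% of those tested) with an annotated length, the median log2 difference went from 0.24 in the shortest to −0.15 in the longest of 5 equal groups. Without NSM replicate 3 it went from 0.11 to −0.04. NSM replicate 3 against the mean of replicates 1 and 2 went from −0.42 to 0.38, and DSF+NSM replicate 3 against its group from −0.28 to 0.14, while NSM replicates 1 and 2 differed by 0.05 or less throughout. The medians of DSF minus DMSO were 0.03 to 0.07 in all 5 groups. The part of length in the results was not tested. Without NSM replicate 3 the changes of HSPA6, HMOX1 and MT1X were 14.13, 12.95 and 8.58, close to those with it.

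**Figure D5:**
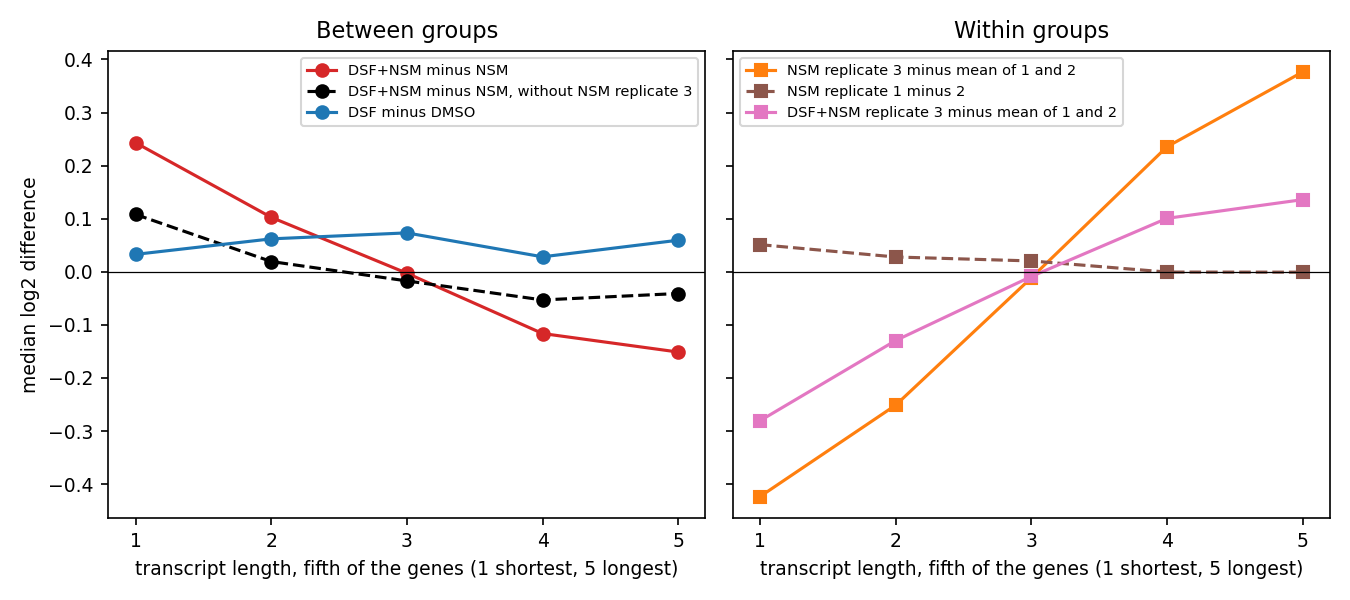
Median log2 difference (y axis) of genes in 5 groups of rising transcript length (x axis), between groups (left) and between libraries within a group (right). The slope of NSM replicate 3 against its group, from −0.42 to 0.38, is opposite to the slope of DSF+NSM minus NSM, from 0.24 to −0.15, which is flatter without that library.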

How the data were processed

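RNA of 12 SHI-1 libraries was measured by poly(A) RNA-seq with paired reads, and the values were grouped by the treatment in the labels. Each library's deposited table holds a signal that the authors normalized, an estimated read number divided by a factor that the file headers place over 24 libraries; the other libraries are not used here. The sources differ on the pipeline: the submitters' processing notes name bcl2fastq 2.19, Trimmomatic, Bowtie2, Picard, featureCounts, hg38 and DESeq2, and the study's methods name STAR and Salmon. Whether counting used strand is not stated.

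From 27.8% to 30.3% of the values above 0 were whole multiples of a library's smallest step (tolerance 0.001 steps), so reads were not recovered and the depth is an estimate, the sum divided by that step. Values near 1 step correspond to about 1 read. Intervals were not computed from these estimates, so low values are imprecise.

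Genes with at least 10 in 3 or more of the 12 libraries were fitted on log2(value + 1) with limma 3.58.1 in R 4.3.3 (trend, robust), with 4 group means over all libraries, two-sided contrasts and Benjamini-Hochberg adjustment over all genes tested. A count model was not used, since the deposited values are no counts. Shares of the sum were compared by exact permutation. The scripts were tested on simulated data. The gene lists, written from general knowledge, and the comparison were chosen with earlier results of these data known.

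Named genes were the 10 largest rises and falls among called genes whose mean over the 6 libraries reached 50 and no overlap, the called member of each list with the largest rise and fall (3 of each in the heat shock, metal response, proteasome, NRF2 and integrated stress response lists), and the 5 largest interactions of each sign. XIST, Y-linked and rRNA genes were left out. A few other genes are not reported here. Other members of the lists are named because of their known roles and were chosen after their values were seen. RefSeq promoters hold 250 bases before and 50 after a gene's start, and lengths were from GENCODE 44. Motif shares and length medians are descriptions. Alternatives were other filters, pseudocounts, scalings, library weights, a replicate block, the 6 libraries alone and leaving out each library.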

Additional observations from a re-analysis of the deposited data

Results flagged for a closer look

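The change on adding DSF differed with and without NSM in 49 of the 62 named genes, each by the interaction term of the limma fit, that is, the log2 difference DSF+NSM minus NSM less the log2 difference DSF minus DMSO. These genes were chosen in part for large changes and large interactions, so the count is no result about them, and 26.1% of all genes tested passed the same test. Positive values mean a more positive change in cells with NSM. Among cytosolic and mitochondrial chaperones the interaction was 5.25 for HSPA6, 6.71 for HSPA1A, 6.11 for HSPA1B, 3.50 for CRYAB and 5.31 for HSPE1. Among metal and redox genes the interaction was 4.61 for MT1B, 5.59 for MT1H, 4.02 for MT1G, 2.94 for HMOX1, 1.73 for SRXN1 and 0.80 for SOD1. Among genes of the proteasome and its segregase the interaction was 2.57 for PSMD1, 1.53 for PSMC4 and 2.16 for VCP. Among stress, growth arrest and signalling genes the interaction was 4.54 for GADD45B, 2.45 for IER5, 4.05 for CXCL2, 1.79 for EGR1, 1.88 for MCOLN1 and 1.68 for CRELD2. Among genes of metabolism, replication and ribosome assembly the interaction was 3.11 for HMGCS1, 1.55 for MCM2, 1.22 for NOP2 and 1.20 for UQCRQ. The other positive values were 7.96 for COL2A1, 7.57 for TGIF2-C20orf24, 6.92 for THBS1 and 3.83 for MIR7-3HG. Negative values among integrated stress response genes were −3.70 for GDF15, −2.84 for PHGDH and −1.78 for ASNS. Negative values among MLL-fusion targets, homeobox and cell cycle genes were −2.19 for MYC, −2.19 for HOXA13, −2.48 for CENPA, −2.47 for KIF20A, −2.01 for DEPDC1, −2.18 for CDKN1B and −1.43 for CEBPD. The remaining negative values were −7.84 for COMMD3-BMI1, −4.28 for SGK3, −3.73 for GAB2, −3.64 for KDM7A, −2.53 for WIPI1, −2.40 for ZXDB, −2.39 for TXNIP, −1.45 for HYOU1, −1.24 for NFE2L1, −0.97 for DUSP6 and −0.84 for NFKB1. The adjusted p over all genes tested was below 0.05 for each, and SGK3 alone lost the call without NSM replicate 3 (limma adjusted p = 0.131). Genes listed at 0 throughout a group (MT1B, MT1H, MT1G, CRYAB, MIR7-3HG and COMMD3-BMI1, for MT1G the DMSO group) have no defined fold, so their fitted values depend on the pseudocount. The same limit holds for genes near 0 in a group. Among them are GDF15 in DMSO (0.884, 0.756 and 0.980), CXCL2 in DMSO (0, 0 and 2.94) and THBS1 in NSM (1.96, 0 and 0). COMMD3-BMI1 and TGIF2-C20orf24 are read-through genes.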

How the results depend on the processing

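The number of genes changed on adding DSF to NSM, 5212, became 9782 with library weights, 2473 with the 6 libraries alone and 8744 at equal sums without NSM replicate 3, and ran from 3781 (without DSF+NSM replicate 1) to 6621 (without NSM replicate 3) when each library was left out. The weights came from an estimate that stopped before its tolerance and gave NSM replicate 2 a weight of 32.8 and replicate 3 a weight of 0.0233, so little rests on them. The 2453 genes that changed by more than 1 became 1631 with at least 10 in every library, 3907 at equal sums and 3760 at equal sums without NSM replicate 3, with a range of 2064 to 2932 over single libraries. The 3527 interactions became 8933 with weights and 7148 at equal sums without NSM replicate 3, and ran from 2618 to 6175, the highest without NSM replicate 3. The 2405 genes changed by DSF against DMSO became 8171 with weights and 7289 with those groups alone, and ran from 911 without DSF replicate 2 to 5551 without NSM replicate 3; without DSF replicate 1 they were 1164, and without DMSO replicates 1, 2 and 3 1157, 1058 and 1391.

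With the rRNA genes left out of the sum, the difference in share was 1.81 percentage points for metal response genes, 2.73 for NRF2 targets and 15.2 for the 20 highest genes. Without NSM replicate 3 the differences in share were 11.7 for heat shock, 1.61 for metal response, 2.21 for NRF2, 5.98 for rRNA, −2.80 for ribosomal protein genes and 18.8 for the 20 highest genes. RPS9 turned to −0.0849 at equal sums without NSM replicate 3 (limma adjusted p = 0.51).

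The replicate numbers were shared between the groups. The deviations of same-numbered NSM and DSF+NSM libraries from their group means correlated at 0.057, 0.118 and 0.278, not all above 0.1, so the numbers were not taken as pairs. Differently numbered libraries of these groups ran from −0.233 to 0.239. For DMSO and DSF the same-numbered libraries correlated at 0.057, 0.053 and 0.024, and the differently numbered ones were all below 0. These values do not decide whether the libraries were paired. With the replicate block 5403 genes changed, 2842 higher and 2561 lower, 2487 by more than 1, and the block gave 3646 interactions and 2520 genes for DSF against DMSO. Of 62 named genes, 48 kept their call and direction under every alternative run, among them HSPA6, HMOX1, MT1B, PSMD1, ASNS, MYC and KIF20A. The 14 that did not were SGK3, SCHIP1, OR7D2, HSF2, CLPX, NFE2L1, SLC38A2, POLR1C, RPS9, UQCRQ, NDUFV2, ENO2, DUSP6 and NFKB1, most of them in the fit of the 6 libraries alone or without a DSF+NSM library. The causes were not tested. Depth limits genes at or near 0 in a group, whose fold is undefined.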

Other observations

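Replication-dependent histone genes, named HIST in the tables and chosen after their values were seen, rose as a group on adding DSF to NSM. Of 46 such genes 44 were tested, 36 rose and none fell, with a median log2 difference of 2.49, or 2.19 without NSM replicate 3. Their summed level was 2005 to 3660 in the NSM libraries and 21791 to 24995 in the DSF+NSM libraries. HIST1H2BK, which gives polyadenylated transcripts as well, rose by 4.21, HIST1H2BJ by 4.61 and the linker histone gene HIST1H1C by 2.50. Without NSM 11 of the 44 rose and none fell, with a median of 0.99, and 20 had a more positive change with NSM. Most histone transcripts lack a poly(A) tail and the libraries were poly(A) selected, and the genes are close copies of each other, so their levels cannot be read as the level of all histone RNA.

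The share of the rRNA genes, mitochondrial rRNA included, differed between treatments as well. It was 4.65% to 5.99% in DSF, 4.70% to 5.53% in NSM and 9.63% to 11.7% in DSF+NSM libraries, against 1.88% to 3.58% in DMSO. After poly(A) selection this share cannot be read as the level of rRNA in the cells. Genes with a single exon, 416 of those with a length, had a median log2 difference of 0.46 on adding DSF to NSM (0.36 without NSM replicate 3), against 0.01 for the 12178 genes with more exons, and −0.02 on adding DSF to DMSO. HSPA1A, HSPA1B and HSPA6 are single-exon genes.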
